A study of Homo sapiens with 8 samples.

Results

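The miR-130, miR-301 and miR-454 family is a set of microRNAs, short regulatory RNAs that pair with messenger RNAs mainly through the seed, bases 2 to 8 from their 5′ end. Its assays were chosen by name, as those whose name without the species prefix begins with miR-130a, miR-130b, miR-301 or miR-454, on either strand. The rule found 8 of the 754 microRNA assays. They are the guide strands miR-130a, miR-130b, miR-301a, miR-301b and miR-454, and the passenger strands miR-130a#, miR-130b# and miR-454#, where # marks the strand of the hairpin that is usually less abundant.

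The levels were measured by TaqMan quantitative PCR in PC9, PC3, LC2/ad and A549, 4 lines from human adenocarcinomas of the lung. Each line gave 1 control sample without added cytokine and 1 sample given TGF-β1 at 5 ng/ml for 72 hours, and all 8 samples came from cells grown in RPMI medium with fetal bovine serum. TGF-β1 is a cytokine under which many epithelial cells take on mesenchymal features. LC2/ad carries a CCDC6-RET fusion and PC9 an activating EGFR mutation, while the PC3 of this study is a lung line by its labels and shares its name with a prostate line. Each line is 1 established culture, none was authenticated for the study, and the labels name no repeat culture, so a value from a single line has no replicate error.

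The 5 guide strands are grouped as a family because they share a seed and so can pair with the same sites in messenger RNAs. Targets described for them include SMAD4, which carries TGF-β signals to the nucleus. miR-130a has been described in blood vessel growth, miR-130b with TP53INP1, a stress-induced tumour suppressor, and miR-301a with NKRF, a repressor of NF-κB.

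The mature sequences show what the members share and where they part. In the 4 guide strands below, taken from RefSeq (GRCh38.p14), capitals mark the seed.
miR-130b: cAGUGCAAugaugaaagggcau
miR-301b: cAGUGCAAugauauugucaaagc
miR-301a: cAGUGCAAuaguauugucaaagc
miR-454: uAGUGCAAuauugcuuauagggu

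The seed AGUGCAA was the same in these 4. The sequences after it were less alike, except in miR-301a and miR-301b, which were identical at 21 of 23 positions and differed by A10G and G11A, counted from 1 at the 5′ end with the base of miR-301a first. miR-130b and miR-301b were identical at 13 of the 22 positions compared. In the RefSeq table miR-3666 and miR-4295 also had this seed, and they had no assay on the cards. How far the assays for miR-301a and miR-301b read each other's product was not tested.

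The family comes from 3 places in the genome. miR-301b lies on chr22:21653025-21653047 and miR-130b on chr22:21653354-21653375, both on the plus strand within the noncoding gene LOC107985532, and their hairpins are 245 bases apart. miR-454 lies on chr17:59137787-59137809 and miR-301a on chr17:59151149-59151171, both on the minus strand within SKA2, a gene for a protein of the spindle and kinetochore, and 13.3 kb separate their hairpins. The MIR130A hairpin lies on chr11:57641198-57641286 within its host gene MIR130AHG.

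The passenger strands, shown because they have other seeds, come from the other arm of the same hairpins.
miR-130a#: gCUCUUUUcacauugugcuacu
miR-130b#: aCUCUUUCccuguugcacuac
miR-454#: aCCCUAUCaauauugucucugc

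None of these 3 holds the family seed at bases 2 to 8. miR-130a# and miR-130b# share the first 6 of their 7 seed bases.

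A sample's raw value is the threshold cycle (Ct). A Ct lower by 1 cycle corresponds to double the template, 40 means no amplification and a Ct above 35 was taken as not detected. Of the 754 assays, 372 were detected in at least 1 sample and 168 in all 8, with 225 to 281 detected per sample. A level is given here on a log2 scale, as the card's mean Ct over the assays detected in all 8 samples (117 on card A, which holds the guide strands, and 51 on card B, which holds the passenger strands) minus the Ct of the assay. A level above 0 is thus above the average of those assays, and levels serve to compare samples for 1 assay, not assays with each other. Of 6 epithelial microRNAs of the miR-200 group with miR-205, 3 to 6 were detected in each sample, and all 6 in both PC9 samples. Of 5 blood cell markers, 0 to 2 were detected per sample. Of 4 fibroblast and smooth muscle markers, PC3 had 2 in both samples, PC9 had 0 in the control and 2 after TGF-β1, LC2/ad had 1 and 3, and A549 had none. Those detected were miR-199a-3p and miR-214 in PC3, miR-143 and miR-145 in PC9, and miR-143, miR-145 and miR-199a-3p in LC2/ad. Sums over these markers therefore hold different assays and do not rank the lines. In PC3, where most family members were highest, the summed log2 level was 3.02 and 3.11. The part of these markers in the family's levels was not tested. miR-126, an endothelial marker, was detected in all 8 samples.

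The family was present in every line. miR-130a, miR-130b, miR-301a and miR-454 were detected in all 8 samples and miR-301b in 7. miR-454# was detected in 5, miR-130b# in 3 and miR-130a# in none. By line, 7 members were detected in each PC3 sample, 5 in each A549 sample, 7 in the control and 5 in the TGF-β1 sample of LC2/ad, and 6 and 5 in those of PC9. The 2 members lost in LC2/ad were passenger strands that had a Ct of 33.8 or 34.5 in the control, and the 1 lost in PC9 was miR-301b.

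Most members differed in level between the lines, with PC3 most often the highest. Of the 7 members with a detected value, 6 differed between lines in limma's F test (adjusted p below the 0.05 threshold over 372 assays), the exception being miR-301a with an adjusted p of 0.0518. The same test called 64.5% of all assays, so differences between lines were common on these cards. The test takes the control and TGF-β1 samples of a line as its 2 replicates after removing the average effect of TGF-β1.

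miR-130a, the member from chromosome 11, was highest in PC3 and lowest in PC9. Its Ct in control and TGF-β1 samples was 27.2 and 26.9 in PC3, 29.1 and 29.4 in LC2/ad, 29.7 and 29.6 in A549, and 32.6 and 32.4 in PC9. The samples of different lines did not overlap, and those of LC2/ad and A549 lay side by side. PC9 also had the highest average Ct, 29.1 and 28.9 over the card A assays against 27.4 to 27.9 in the other lines, which the levels take into account. Its mean log2 level was 0.40 in PC3, -1.54 in LC2/ad, -1.88 in A549 and -3.49 in PC9. PC3 exceeded PC9 by 14.9-fold (3.89 ± 0.26 on the log2 scale, SE, n = 2 samples per line, limma adjusted p = 0.000152). PC3 also exceeded its nearest neighbour LC2/ad by 1.94 (limma adjusted p = 0.00281), and A549 exceeded PC9 by 1.62 (limma adjusted p = 0.00518). LC2/ad and A549 differed by 0.34, which did not pass (limma adjusted p = 0.681).

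miR-130b and miR-301b, the neighbours on chromosome 22, were also highest in PC3, followed by LC2/ad. The Ct of miR-130b was 28.4 and 28.5 in PC3, 29.8 and 29.8 in LC2/ad, 30.9 and 30.4 in A549, and 32.3 and 33.0 in PC9. It was 6.14-fold higher in PC3 than in PC9 (2.62 on the log2 scale, limma adjusted p = 0.00395). No step between neighbours in that order passed the test: 1.11 from PC3 to LC2/ad (limma adjusted p = 0.0734), 0.85 from LC2/ad to A549 (0.534) and 0.66 from A549 to PC9 (0.212). U6 is the small nuclear RNA to which the authors referred their values. With U6 the step from A549 to PC9 was 1.54 and passed (limma adjusted p = 0.0151). The step from PC3 to LC2/ad passed with U6, RNU44 and RNU48 together (all control RNAs, limma adjusted p = 0.0315). It also passed with a Ct limit of 32 (0.00758) and without PC9 (0.0422), and with no other alternative run.

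The Ct of miR-301b was 29.6 and 29.7 in PC3, 31.8 and 31.6 in LC2/ad, 33.0 and 32.5 in A549, and 33.2 and 39.5 in PC9. The last value lies above the limit and was set to 35, so the mean for PC9 is an upper bound. miR-301b was at least 7.28-fold higher in PC3 than in PC9 (limma adjusted p = 0.0147) and was higher by 2.79 on the log2 scale in PC3 than in A549 (limma adjusted p = 0.0187). The step of 1.80 from PC3 to LC2/ad missed the threshold (limma adjusted p = 0.0734). It passed with U6 (0.0124), RNU48 (0.0361), all control RNAs (0.0112), a Ct limit of 32 (0.00106) and without PC9 (0.0142). The other alternatives run, among them the median Ct (0.0956) and a Ct limit of 38 (0.433), did not pass it. A549 and PC9, at -5.00 and at most -5.07, had no settled order. PC9, still an upper bound, was above A549 by 0.02 with RNU48, 0.04 with 1 limit for the card and 0.37 with the median Ct. With a Ct limit of 32 every A549 and PC9 sample was above the limit and set to it. The difference of 1.29 there came from the card means alone and gives no order. With a Ct limit of 38 miR-301b passed neither the F test (adjusted p = 0.214) nor the comparisons of PC3 with PC9 (0.0854) and A549 (0.247), and 4 of the 7 members differed between lines.

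For miR-301a and miR-454, which lie in SKA2, the place of PC9 depended on the normalizer, and with the mean of the detected assays they did not follow that order. The Ct of miR-301a was 27.9 and 27.9 in PC3, 30.7 and 30.3 in PC9, 28.4 and 29.96 in LC2/ad, and 29.8 and 29.9 in A549. Because the average assay had a higher Ct in PC9 than in the other lines, its mean log2 level there, -1.46, was next to that of LC2/ad, -1.51, and above that of A549, -2.09. PC3 stood at -0.51, which was 1.58 above A549 (limma adjusted p = 0.0216) and 0.94 above PC9 (limma adjusted p = 0.0816, not called). With U6, PC9 was 1.86 below PC3 (limma adjusted p = 0.0173), 0.86 below LC2/ad (0.288) and 0.24 below A549 (0.855), and the means took the order of miR-130a. The difference between PC3 and PC9 also passed with a Ct limit of 32 (limma adjusted p = 0.0358), and that between PC3 and A549 did not with a limit of 38 (0.0568). The F test of miR-301a passed with U6 (adjusted p = 0.0440), the median Ct (0.0416) and a Ct limit of 32 (0.0155).

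miR-454, the member with the lowest Ct, had its highest levels in PC9 and PC3. Its Ct was 26.3 and 26.0 in PC9, 24.6 and 24.7 in PC3, 25.6 and 26.5 in LC2/ad, and 25.7 and 26.0 in A549. The mean log2 levels were 2.87 in PC9, 2.75 in PC3, 1.88 in A549, and lowest, 1.65, in LC2/ad. PC9 and PC3 differed by 0.12 (limma adjusted p = 0.720) and A549 and LC2/ad by 0.23 (limma adjusted p = 0.795), neither of which passed. PC9 was above LC2/ad by 1.22 (limma adjusted p = 0.0169) and above A549 by 0.98 (limma adjusted p = 0.0342). PC3 was above LC2/ad by 1.10 (limma adjusted p = 0.0251), while its 0.86 over A549 missed the threshold (limma adjusted p = 0.0505).

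None of the 3 differences of miR-454 that passed did so with U6, RNU48, all control RNAs or a Ct limit of 38. With U6, PC9 was 0.79 below PC3 (limma adjusted p = 0.232) and 0.11 above A549 (0.949). The limma F test of miR-454 did not pass with U6 (adjusted p = 0.256), RNU48 (0.0881) or all control RNAs (0.0651). It also did not pass with a Ct limit of 38 (0.0728), without PC3 (0.0732) or without PC9 (0.0680). It passed with the median Ct (0.0101) and a Ct limit of 32 (0.00494). miR-130a was lower in PC9 than in PC3 with every normalizer run, and the difference ran from -3.32 with the median Ct to -4.81 with U6.

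**Figure D1:**
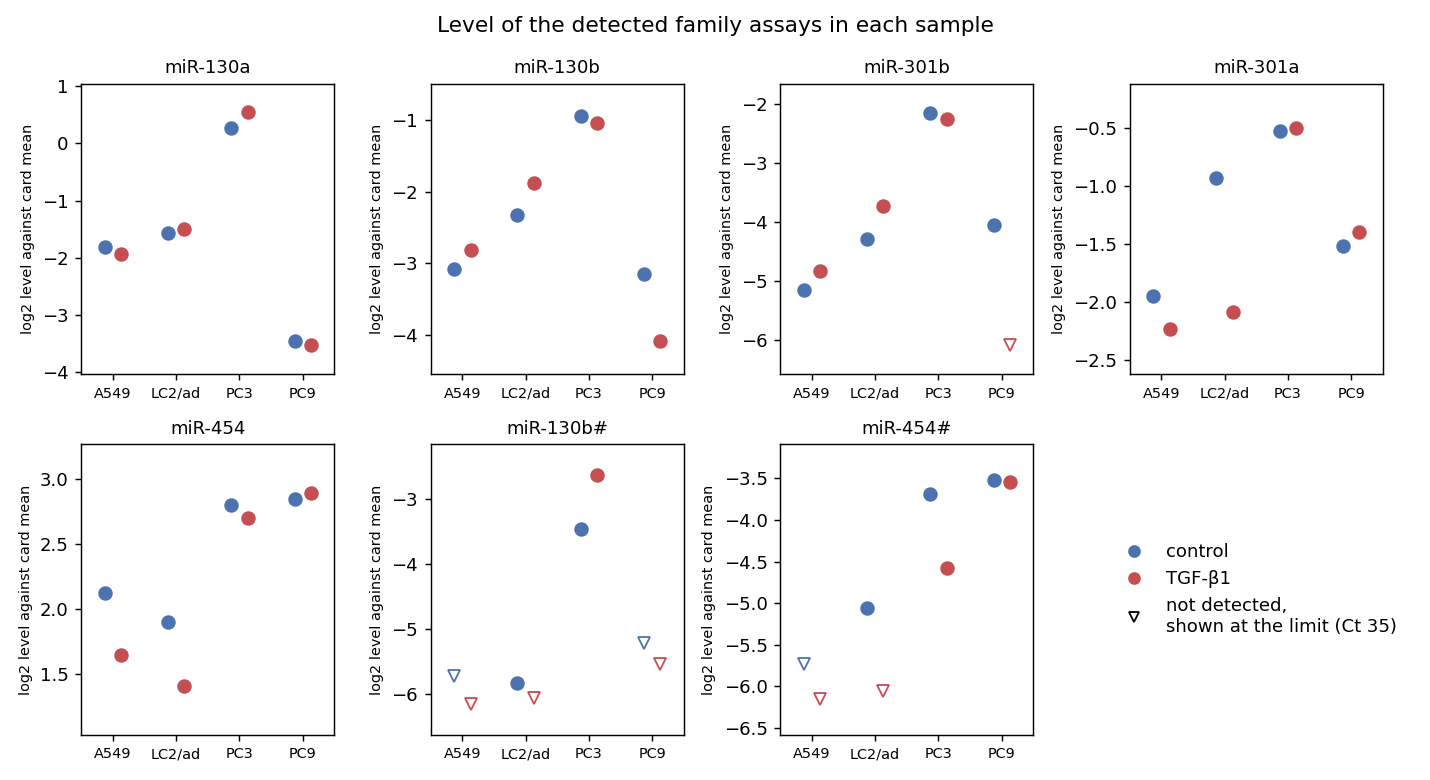
Log2 level of the family members (Ct of the card's average assay minus Ct of the member) in the control and TGF-β1 samples of the 4 lines, with 1 point per sample and open triangles for samples without detection, drawn at the limit. miR-130a falls from a mean of 0.40 in PC3 to -3.49 in PC9, while miR-454 is at 2.75 and 2.87 in the same lines.

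The pairs of lines set the members' counts against the background. Of the 7 members tested, 4 were called higher in PC3 than in PC9 (miR-130a, miR-130b, miR-301b and miR-130b#), against 21.0% of all assays called in that direction, and none was called higher in PC9; 54.0% of all assays were called in either direction. Between PC3 and A549, 6 of the 7 were called, all higher in PC3, against 43.3% of all assays in either direction. Between PC3 and LC2/ad, 4 were called, all higher in PC3, against 39.8% in either direction. The share of all assays called in 1 direction was taken only for PC3 against PC9. PC9 was called higher than LC2/ad for 2 members (miR-454 and miR-454#) and lower for 2 (miR-130a and miR-130b), against 41.4%. It was called higher than A549 for 2 and lower for 1, against 44.1%. The call of miR-130b against LC2/ad (limma adjusted p = 0.0271) did not pass with the median Ct (0.143) or a Ct limit of 38 (0.0716). Leaving out A549 (0.0526) or PC3 (0.0626) also removed it. LC2/ad and A549 differed for none of the 7, against 1.61%. Members share hairpins and host transcripts, so they are not independent of each other. Of the 168 assays detected in all 8 samples, 20 (11.9%) were highest in PC3 and lowest in PC9.

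The distance between members in the same sample does not depend on the normalizer. The Ct of miR-130a minus that of miR-454 was 2.53 and 2.16 cycles in the control and TGF-β1 samples of PC3, 3.47 and 2.91 in LC2/ad, 3.94 and 3.58 in A549, and 6.30 and 6.42 in PC9. PC9 stood apart from the other lines by more than 2 cycles in both samples. The gap of miR-301a over miR-454 moved less, between 2.83 and 4.36 cycles over the 8 samples. The gap of miR-301b over miR-130b was 0.91 to 2.07 cycles in the 7 samples with miR-301b, and 6.49 in the TGF-β1 sample of PC9, where miR-301b was not detected. The gap of miR-130b over miR-130a was positive in 7 samples, from 0.37 to 1.58 cycles, and -0.31 in the PC9 control. A gap between assays also holds their difference in efficiency, so its change between samples is the measurement and its size is no ratio of molecules.

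**Figure D2:**
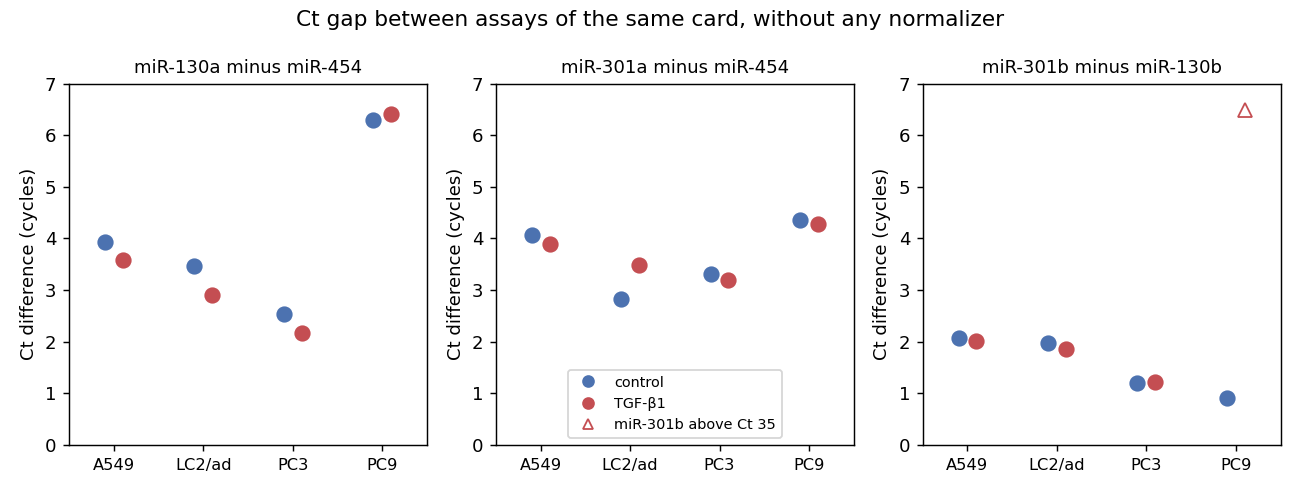
Difference in Ct, in cycles, between pairs of family members in the same sample, for the control and TGF-β1 samples of the 4 lines. The gap of miR-130a over miR-454 is 6.30 and 6.42 cycles in PC9 and at most 3.94 in the other lines; the gap of miR-301b over miR-130b in the TGF-β1 sample of PC9 rests on a Ct of 39.49, above the detection limit.

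The series asks how microRNAs differ after TGF-β1, and over the 4 lines no member passed that test. Of the 6 members with a change in at least 3 lines, limma called 0 after Benjamini-Hochberg adjustment over 250 assays, and 0 had an unadjusted p below 0.05. The background was the same, with 0% of the 250 assays called, 30 at an unadjusted p below 0.05 and a smallest adjusted p of 0.290. The median of the members' mean log2 changes was -0.28, against -0.08 for all tested assays. Members with a lower value after TGF-β1 numbered 4 of 6 in PC9, 4 of 7 in PC3, 4 of 7 in LC2/ad and 3 of 5 in A549, beside 57.5%, 54.9%, 52.1% and 57.5% of all assays with a change.

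The mean change of miR-130a was the nearest to 0. Its log2 changes, TGF-β1 minus control, were 0.27 in PC3, 0.07 in LC2/ad, -0.07 in PC9 and -0.12 in A549, with a mean of 0.04 ± 0.17 (SE, n = 4 lines, limma adjusted p = 0.944). The 95% interval ran from -0.40 to 0.47. It was higher in 2 lines and lower in the other 2.

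miR-454 was lower in 3 of 4 lines. Its log2 changes were 0.05 in PC9, -0.10 in PC3, -0.49 in LC2/ad and -0.48 in A549, and the mean of -0.26 ± 0.19 (SE, n = 4, 95% interval -0.73 to 0.22) did not pass (limma adjusted p = 0.631).

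miR-130b split by line, with changes of 0.46 in LC2/ad, 0.27 in A549, -0.09 in PC3 and -0.94 in PC9. Its mean was -0.08 ± 0.28 (SE, n = 4, 95% interval -0.78 to 0.63, limma adjusted p = 0.932). Without PC9 the mean was 0.21. The lower value in PC9 rests on Ct values of 32.3 and 33.0, where few template copies are amplified. With U6 as normalizer it was -0.04.

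The widest measured change of miR-301a was in LC2/ad. Its changes were 0.12 in PC9, 0.02 in PC3, -1.16 in LC2/ad and -0.29 in A549, with a mean of -0.33 ± 0.27 (SE, n = 4, 95% interval -0.998 to 0.34, limma adjusted p = 0.648). In LC2/ad its Ct went from 28.4 in the control to 29.96 after TGF-β1, a level 2.23-fold lower. Both values are well below the limit, but they are 1 sample each, and with the median Ct as normalizer the difference was -0.88. miR-454 from the same host gene differed by -0.49 in that line.

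miR-301b passed below detection in 1 PC9 sample. Its changes were 0.57 in LC2/ad, 0.33 in A549 and -0.11 in PC3, and in PC9 it went from a Ct of 33.2 to 39.5, which is at least 4.09-fold lower. That bound, -2.03 on the log2 scale, was -1.44 with RNU48, -1.37 with all control RNAs and -1.13 with U6. The mean with that bound was -0.31 ± 0.47 (SE, n = 4, 95% interval -1.48 to 0.85, limma adjusted p = 0.800), and without PC9 it was 0.26. In the same PC9 samples miR-130b, its neighbour on chromosome 22, changed by -0.94. That change was -1.15 with the median Ct, -0.35 with RNU48, -0.28 with all control RNAs and -0.04 with U6.

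**Figure D3:**
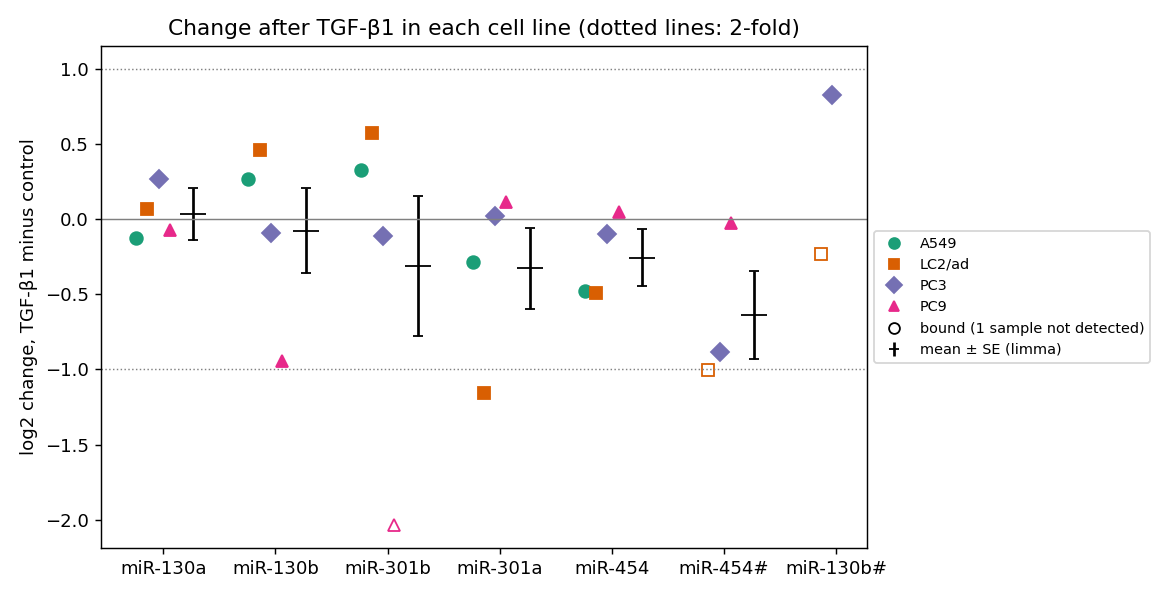
Log2 change, TGF-β1 minus control, of each family member in each of the 4 lines, with the limma mean ± SE of the 6 members tested as bars and dotted lines at 2-fold. The means lie between -0.64 and 0.04; open points are bounds where 1 sample of the line was above the detection limit.

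Changes of at least 2-fold within a line were counted among assays with a Ct of 32 or below in both samples. Of 5 members that met this in LC2/ad, 1 (miR-301a) passed, against 18.6% of all such assays in that line. None of the 4 members in A549 passed (background 7.45%), none of the 6 in PC3 (0.562%) and none of the 2 in PC9 (6.67%).

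The passenger strands were read near the limit. miR-454# had a Ct of 33.3 and 33.0 in PC9, 32.2 and 33.1 in PC3, 33.8 and 35.5 in LC2/ad, and 37.3 and 35.6 in A549, where it was not detected. Its log2 changes were -0.89 in PC3 and -0.03 in PC9, and in LC2/ad it was at least 2.01-fold lower. The mean over these 3 lines, -0.64 ± 0.29 (SE, 95% interval -1.41 to 0.14), holds that bound and did not pass (limma adjusted p = 0.419). Its levels placed PC9 and PC3 first, as for the guide miR-454, with PC9 at least 2.40 above A549 (limma adjusted p = 0.00315) and PC3 at least 1.43 above LC2/ad (limma adjusted p = 0.0189), where A549 and 1 of the LC2/ad samples stood at the limit. The difference between PC3 and LC2/ad did not pass with the median Ct (limma adjusted p = 0.0584), U6 (0.0615), RNU48 (0.111) or a Ct limit of 38 (0.154).

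miR-130b# was clearly amplified in PC3 only, at a Ct of 31.96 in the control and 31.2 after TGF-β1. In LC2/ad it had 34.5 and 35.9, in PC9 38.1 and 37.5, and in A549 40 in both samples. PC3 exceeded PC9 by at least 2.33 on the log2 scale (limma adjusted p = 0.00507). That p-value takes both PC9 samples, both A549 samples and the TGF-β1 sample of LC2/ad at the limit. The limma F test of miR-130b# did not pass with a Ct limit of 32 (adjusted p = 0.172) or without PC3 (0.248). Its guide miR-130b was also highest in PC3. miR-130a# was at 40 in all 8 samples, PC3 included, where its guide had a Ct of 26.9 to 27.2.

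Members made from 1 transcript or hairpin can be compared with each other within a sample, where the normalizer cancels on 1 card. The change of miR-130b minus that of miR-301b was 0.23 ± 0.57 (SD, n = 4 lines, exact sign-flip test, two-sided, p = 0.875). By line it was -0.06 in A549, -0.12 in LC2/ad and 0.02 in PC3. In PC9, where miR-301b was not detected after TGF-β1, it was at least 1.09, so the mean and SD hold a bound. For miR-301a minus miR-454 it was -0.07 ± 0.40 (SD, n = 4, exact p = 1). The smallest p that 4 lines allow is 0.125, so no difference could have passed. For the strands of 1 hairpin, which lie on different cards, miR-454 minus miR-454# was 0.46 ± 0.36 (SD, n = 3 lines, exact p = 0.25, the smallest possible). miR-130b minus miR-130b# was -0.11 over the 2 lines with values (exact p = 1, smallest possible 0.5). In LC2/ad the changes of miR-454# and miR-130b# are bounds.

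The authors' deposited table of folds gave higher values in PC9 than the levels above for the 4 guide strands detected in all samples. In that table, TGF-β1 over control in PC9 was 1.78 for miR-130a, 2.03 for miR-301a, 1.94 for miR-454 and 0.974 for miR-130b. The authors' table rests on U6, and in PC9 the average microRNA of card A was 0.91 higher after TGF-β1 on the log2 scale, taken against U6, beside 0.53 on card B and between -0.34 and 0.26 on card A in the other lines. The 4 U6 wells of a card A sample spanned 0.34 to 1.49 cycles, and 1.14 in the TGF-β1 sample of PC9. For miR-301a in PC9 the log2 change was 0.12 with the mean of the detected assays, -0.09 with their median, 0.71 with RNU48, 0.78 with U6, RNU44 and RNU48 together and 1.02 with U6. In the other direction, the deposited table gave 0.353 for miR-301a and 0.560 for miR-454 in LC2/ad.

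**Figure D4:**
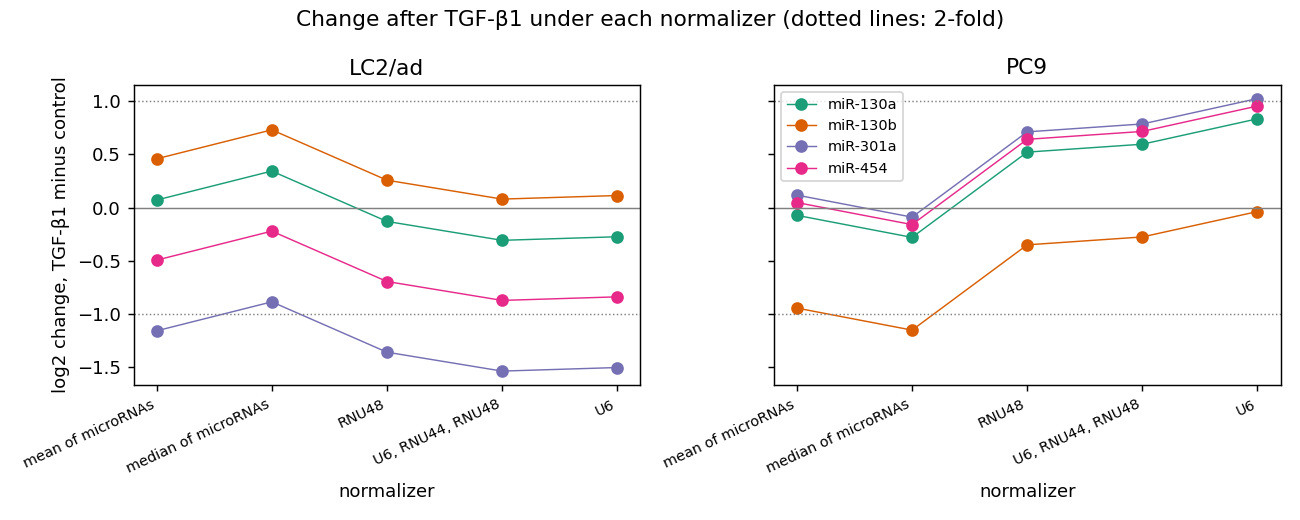
Log2 change, TGF-β1 minus control, of the 4 guide strands detected in all samples, under each of 5 normalizers, in LC2/ad (left) and PC9 (right), with dotted lines at 2-fold. In PC9 miR-301a runs from -0.09 with the median Ct to 1.02 with U6, and miR-130a from -0.28 to 0.83.

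Some deposited folds rest on values above the detection limit, because the authors' table keeps a Ct of 40 as a value. The deposited fold of 0.0204 for miR-301b in PC9 rests on the Ct of 39.5. For miR-454# in A549 the authors' table gives 2.35, from 2 Ct values above 35. It gives 0.759 for both miR-130a# and miR-130b# in A549, where neither amplified in either sample and the value is that of U6 alone.

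The levels of some other microRNAs followed those of the members across the samples. Pearson's r over the 8 samples is given as a description, since the 2 samples of a line are alike and all assays share the normalizer. Among 164 other assays detected in all samples, miR-130a was most like miR-660 (r = 0.98), miR-10a (0.98), a microRNA of the HOXB cluster, and miR-195 (0.97). miR-130b was most like miR-10a (0.95), miR-378 (0.91) and miR-935 (0.91). miR-301a was most like miR-590-5p (0.96), miR-106b# (0.96) and miR-19a (0.92), and miR-454 was most like miR-221 (0.94), miR-191 (0.93) and miR-9# (0.93). With U6 as normalizer miR-454 had 0.78 with miR-221, 0.92 with miR-191 and 0.77 with miR-9#, and the other pairs had at least 0.93. Without PC3 miR-130b had 0.88 with miR-10a, 0.74 with miR-378 and 0.76 with miR-935, and the other pairs had at least 0.82.

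Among the members themselves, miR-130a and miR-130b had r = 0.94 over the 8 samples, although they lie on different chromosomes. miR-301a and miR-454 had 0.63, miR-130a and miR-301a 0.58, and miR-130b and miR-301a 0.57. miR-454 had -0.03 with miR-130a and -0.06 with miR-130b. With U6 as normalizer these last 2 were 0.54 and 0.41, and miR-301a with miR-454 had 0.82. The values also moved when 1 line was left out. Without PC9 the 6 pairs ran from 0.65 to 0.93. Without PC3 miR-130a and miR-130b kept 0.82, while miR-454 had -0.93 with miR-130a and -0.85 with miR-130b.

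MicroRNAs with seeds that overlap the family's were taken for comparison. The seeds of miR-148a, miR-148b and miR-152 share the 6-base run AGUGCA with it, and those of miR-19a and miR-19b share GUGCAA. A member of each is shown to place the run, with its seed in capitals.
miR-148a: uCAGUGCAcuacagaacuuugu
miR-19a: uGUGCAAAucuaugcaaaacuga

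None of these 5 assays passed limma's test of TGF-β1 over the lines, 0 had an unadjusted p below 0.05, and the median of their mean changes was -0.17. Of the 5, 2 differed between lines, miR-148a (limma F test, adjusted p = 0.00130) and miR-19a (adjusted p = 0.0413). miR-148a had a Ct of 29.3 to 30.5 in A549, LC2/ad and PC3 and 40 in both PC9 samples, so that PC9, where miR-130a was also lowest, was at least 13.2-fold below PC3 (limma adjusted p = 0.000862). That p-value takes both PC9 samples at the limit. miR-19a had its highest level in PC3, at 3.32, and its lowest in A549, at 2.13, the same ends as miR-301a. For miR-19b, miR-148b and miR-152 the F test did not pass (adjusted p = 0.0876, 0.669 and 0.313).

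The miR-17 seed family, whose seed shares the shorter run AGUGC, was measured by 6 assays. None passed the test of TGF-β1 over the lines, 1 (miR-20b, mean -0.45, lower in 4 of 4 lines, limma adjusted p = 0.388) had an unadjusted p below 0.05, and the median of the 6 means was -0.30. Of the 6, 4 differed between lines.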

How the data were processed

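MicroRNAs were measured by TaqMan PCR on 2 cards in 4 lung adenocarcinoma lines, 1 control and 1 TGF-β1 sample each. Groups follow the treatment characteristic and titles; the source names word the exposure the other way round. The deposited raw Ct values are not normalized, per the file headers. The deposited ratio was calibrated by the authors to the A549 control, per the file headers, and the deposited fold divides such ratios; recomputing the ratio from Ct and U6 with 40 kept left a largest log2 difference of 4.07e-06. The instrument and its settings: not given in the sources used here.

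Ct values above 35 were set to 35 and centred per sample and card. Changes were tested with limma 3.58.1 (R 4.3.3) on differences within lines, for assays with a change in at least 3 lines, two-sided, and levels with a limma F test and pairwise contrasts in a model of line and treatment. Each set of p-values was adjusted by Benjamini-Hochberg over all assays tested, separately for each contrast. The line is the block: control and TGF-β1 samples of a line deviated together from their group means (r = 0.92, 0.81, 0.94 and 0.92 over 168 assays). For changes, the error is the spread of the change between lines. For levels, it is what is left within lines after the line and treatment terms. No culture was replicated. The number of samples and a high Ct limit the precision. The members and lists were chosen with earlier results of these data known. Named were all members, for each member detected in all 8 samples the 3 other assays with the highest r, and the seed relatives. The strand a name stands for (3p for guides, 5p for #) comes from general knowledge; 7 of the 8 assays were matched to RefSeq mature sequences. The tests were run on simulated data in which every value counted as detected, so tests with values at the limit were not checked. Alternatives were other normalizers, Ct limits of 32 and 38, 1 detection limit per card, assays with a change in all lines, no block, and leaving out each line.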

Additional observations from a re-analysis of the deposited data

How the results depend on the processing

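No member was called over the lines under any alternative run, and the fit with no replicate block, which ignores the pairing by line, also called 0. Of the single means, all of which missed the threshold, some changed sign. That of miR-130b was 0.21 with a Ct limit of 32, 0.18 with U6 and with the deposited fold, and 0.0050 with the median Ct; that of miR-454 was 0.0053 with U6 and with the deposited fold. Leaving out each line in turn gave -0.042 to 0.09 for miR-130a, -0.26 to 0.21 for miR-130b and -0.61 to 0.26 for miR-301b; the highest of the latter 2 came without PC9. The members differing between lines numbered 2 to 7 when a line was left out, 2 without PC3. The members with a 2-fold change within a line numbered 0 with the median Ct, 2 with U6 and 0 to 1 with a line left out. With a Ct limit of 32, miR-130b# was above the limit in both A549 and both PC9 samples, which were set to it. Its difference was then at least -0.11 for PC3 minus A549 and at most 0.67 for PC9 minus PC3. These bounds give no order of the lines. Alternatives for the remaining results were added after seeing the data. The miR-17 seed family had 2 members that differed between lines with a Ct limit of 38, with U6 and with all control RNAs, and 0 to 6 with a line left out. The seed relatives had 1 with a Ct limit of 38, RNU48, U6 and all control RNAs, and 1 to 3 with a line left out. The median r between members ran from -0.24 without PC3 to 0.84 without PC9. The change of miR-130b minus miR-130b# was 0.15 with the median Ct, that of miR-130b minus miR-301b was -0.049 with a Ct limit of 32 and -0.051 to 0.35 with a line left out, and that of miR-301a minus miR-454 was -0.16 to 0.13. The causes were not tested.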
